A study of Sus scrofa with 15 samples.

Results

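This report describes 9 genes that encode nuclear receptors of hepatocyte metabolism in livers of young pigs given lipopolysaccharide (LPS), an outer membrane component of Gram-negative bacteria. The genes were NR1H4, NR1H3, PPARA, NR1I2, NR1I3, RXRA, NR5A2, NR0B2 and NR3C1. They were chosen by name, with earlier results of these data known. Each was found by its pig Ensembl symbol among the 31908 genes of the deposited count table. All 9 had a row, and all 9 passed the filter on low counts that left 12774 genes for testing.

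The animals were male pigs of the cross Duroc x Large White x Landrace in the growing stage. The CON group received sterile saline and the LPS group received 80 μg/kg of LPS, both into the peritoneal cavity, and liver was taken 4 h later. The RNA was the input fraction of an m6A immunoprecipitation experiment, that is, fragmented polyadenylated RNA of whole liver to which no antibody had been added. There were 3 libraries in each group, and the labels do not say whether each came from a different piglet, so a p-value here measures only the spread between libraries, which may be technical. In such bulk RNA, fewer cells of a type and less RNA per cell cannot be told apart.

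Nuclear receptors are transcription factors that bind small lipophilic molecules and read the metabolic state of the cell. FXR (NR1H4), LXRα (NR1H3), PPARα (PPARA), PXR (NR1I2) and CAR (NR1I3) respond to bile acids, oxysterols, fatty acids and foreign compounds, and each binds DNA together with a common partner, RXRα (RXRA). LRH-1 (NR5A2) binds DNA without that partner, SHP (NR0B2) has no DNA-binding domain and represses other receptors, and the glucocorticoid receptor (NR3C1) answers to cortisol. In the acute phase response to endotoxin, the liver is known to lower the RNA of several of these receptors and of the genes they control.

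Sequencing gave 5927348 to 10351491 counts per library for CON and 4348478 to 19967417 for LPS. Levels are given in CPM, the counts of a gene scaled to a common library size, after TMM, edgeR's correction for differences in library composition. LPS replicate 2 stood closer to the CON libraries than the other LPS libraries did. Over the tested genes its log2 CPM correlated at 0.923 to 0.945 with the CON libraries, whereas LPS replicates 1 and 3 correlated with them at 0.837 to 0.899. Pairs of CON libraries correlated at 0.943 to 0.953. These correlations are across genes, which are not independent replicates. The tissue showed its defining markers. ALB, which encodes albumin, had 38010, 21610 and 20310 CPM in the CON group and 12380, 15100 and 19680 CPM in the LPS group. For ALB the groups thus did not overlap, with a log2 fold change of -0.76 ± 0.38 (SE, adjusted p = 0.461 by edgeR). APOA1, which encodes the main protein of high density lipoprotein, had between 12530 and 29140 CPM. The summed level of the 19 hepatocyte markers with a row was 99120 to 117200 CPM in the CON group, and 85330, 86330 and 171300 CPM in LPS replicates 1, 2 and 3. That list includes FGB, an acute phase gene, at 44960 CPM in LPS replicate 3 and 9956 ± 2437 CPM in the CON group (SD, n = 3). The sum is thus not a measure of hepatocyte content alone. Because LPS replicate 2 stood closer to the CON libraries, each result on the receptors is also given without it where that library decided it.

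Among the receptors, the LPS values of NR1H4, PPARA and NR1I2 all lay below the CON values. NR5A2 lay above all CON values in LPS replicates 1 and 3 and below them in LPS replicate 2. NR0B2 lay above them in LPS replicates 2 and 3 and inside their range in LPS replicate 1. A gene was called when its adjusted p was below 0.05 and its fold change above 1.5. In the comparison of all 6 libraries, 0 of the 9 receptors were called by the quasi-likelihood test of edgeR, against 0.0548% of all tested genes. Before adjustment, 3 receptors had a p below 0.05 with lower LPS values (NR1H4, PPARA and NR1I2) and 0 with higher ones, against 6.33% and 6.18% of all tested genes. DESeq2 also called 0 of the 9, with 2.81% of all genes called. limma-voom called 0 of the 9, and over all 12774 genes it called only 4 higher and 2 lower. The unadjusted p was below 0.05 for 4 receptors in DESeq2 and for 3 in limma-voom, against 12.4% and 12.7% of all genes tested there. For 3 of the 9 receptors all LPS values lay below all CON values, and for 0 above them, compared with 9.8% and 6.52% of all tested genes. For 3 against 3 libraries, the two-sided exact permutation test reported beside single receptors cannot go below p = 0.1. With single libraries left out, the number of receptors with an unadjusted p below 0.05 in edgeR was 0 without CON replicate 1, 1 without CON replicate 3, LPS replicate 1 or LPS replicate 3, 3 without CON replicate 2 and 5 without LPS replicate 2. The share of all tested genes changed as well, from 6.94% without CON replicate 1 to 23.9% without LPS replicate 2.

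Without LPS replicate 2, edgeR called 4 of the 9 receptors. NR1I2, NR1H4 and PPARA were called lower and NR5A2 higher, where 3.45% and 3.76% of the 13632 genes then tested were called lower and higher. That library was singled out because its values lay closest to the CON group, so leaving it out tends to widen the gap between groups. Calls over all genes went from 7 higher and 0 lower to 512 and 470. The p-values without it, here and below, are therefore a description and not separate support. DESeq2 without that library, an alternative chosen after seeing the data, called the same 4 genes in the same directions, and it called 5.3% of the 14193 genes it tested lower and 5.57% higher. No receptor was called when any other single library was left out. In the plot of each LPS library against the CON range, LPS replicate 2 lies nearer to that range than LPS replicates 1 and 3 do for NR1I2, NR1H4 and PPARA, and for NR5A2 it lies on the other side of the range.

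**Figure D1:**
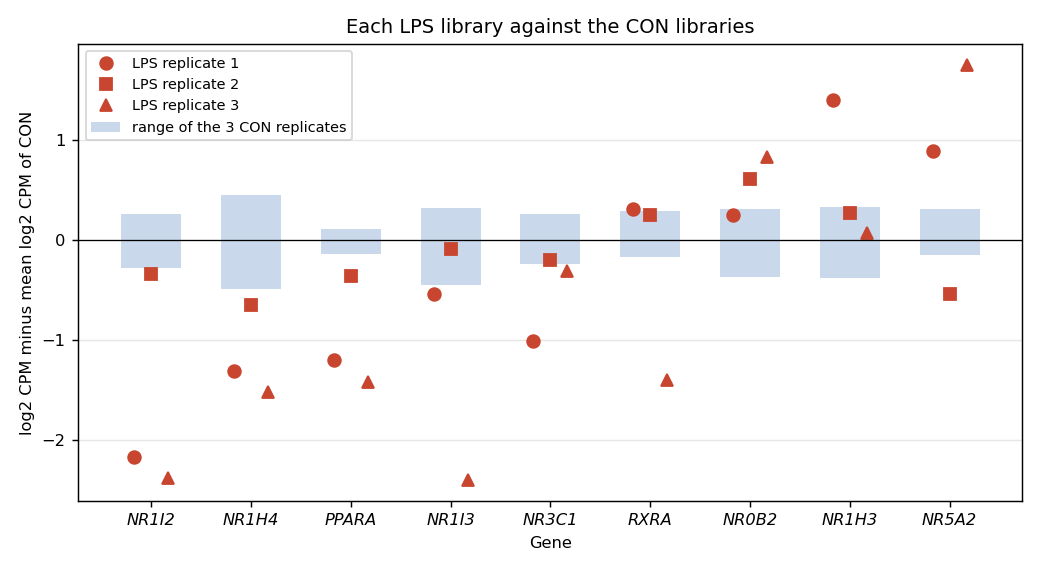
Each LPS library is plotted as log2 CPM minus the mean log2 CPM of the CON group for the 9 receptor genes, with a bar for the range of the 3 CON replicates. NR1I2 lies at -2.17 and -2.37 in LPS replicates 1 and 3 and at -0.34 in LPS replicate 2, and NR5A2 lies at 0.89 and 1.75 in LPS replicates 1 and 3 and at -0.54 in LPS replicate 2.

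NR1H4 (ENSSSCG00000000875, chromosome 5 from 83604288 to 83684604, minus strand, in the coordinates of the deposited table, whose build is not stated) encodes the bile acid receptor FXR, which limits bile acid synthesis and drives bile acid export. It had 62.5, 47.2 and 32.7 CPM in CON replicates 1, 2 and 3 and 18.5, 29.3 and 16.0 CPM in LPS replicates 1, 2 and 3. All LPS libraries were therefore lower than every CON library, and the nearest were CON replicate 3 and LPS replicate 2. The means were 47.5 ± 14.9 and 21.3 ± 7.1 CPM (SD, n = 3 per group). The log2 fold change was -1.16 ± 0.37 (SE, adjusted p = 0.256 by edgeR), a ratio of 0.447. The exact permutation test gave p = 0.1, the smallest it can give. NR1H4 was called without LPS replicate 2, with a log2 fold change of -1.46 ± 0.39 (SE, adjusted p = 0.0439 by edgeR).

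PPARA (ENSSSCG00000000006, chromosome 5 from 3300708 to 3366361, minus strand) encodes the fatty acid sensor that drives fatty acid oxidation and ketone body formation in fasting. Its CON libraries were close together, at 79.6, 67.0 and 75.8 CPM. The LPS libraries had 32.3, 57.8 and 27.8 CPM, so the groups did not overlap, and LPS replicate 2 lay nearest to the CON group. This gave a log2 fold change of -0.92 ± 0.35 (SE, adjusted p = 0.329 by edgeR), and the exact permutation test gave p = 0.1. It was -1.30 ± 0.34 (SE, adjusted p = 0.0403 by edgeR) without LPS replicate 2, and the gene was called.

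NR1I2 (ENSSSCG00000011890, chromosome 13 from 140364075 to 140406112, minus strand) encodes PXR, which induces drug-metabolizing enzymes and transporters on contact with foreign compounds and some bile acids. Of the 3 genes whose LPS values all lay below the CON values, it had the widest gap between LPS libraries. The CON libraries had 67.7, 54.7 and 79.7 CPM, and the LPS libraries 14.8, 52.7 and 12.8 CPM. LPS replicate 2 thus lay just below CON replicate 2, and the other LPS libraries lay far below all CON libraries. These values gave a log2 fold change of -1.33 ± 0.52 (SE, adjusted p = 0.347 by edgeR) and its exact permutation p was 0.1. Without LPS replicate 2 the log2 fold change was -2.28 ± 0.37 (SE, adjusted p = 0.00575 by edgeR), a ratio of 0.205. NR1I2 was also the receptor that edgeR called without the filter on low counts, with all 6 libraries (log2 fold change -1.37, adjusted p = 0.0204), where 1.48% of 23529 genes were called lower. Of its exon bases 1.35% are shared with GSK3B on the opposite strand, and GSK3B had a log2 fold change of 0.00 ± 0.29 (SE).

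NR1I3 (ENSSSCG00000006353, chromosome 4 from 89226690 to 89236450, plus strand) encodes CAR, a close relative of PXR that regulates many of the same detoxification genes. It was a low gene in this table, with 66, 43 and 40 reads in the CON libraries and 17, 31 and 15 in the LPS libraries. A count of 15 carries a counting error of 25.8%. The levels were 5.90, 6.72 and 3.96 CPM in the CON group and 3.71, 5.07 and 1.02 CPM in the LPS group, and the groups overlapped through LPS replicate 2. CAR thus had a log2 fold change of -0.80 ± 0.57 (SE, adjusted p = 0.608 by edgeR). It was -1.35 without LPS replicate 2 (adjusted p = 0.206 by edgeR) and -0.30 without LPS replicate 3. Of its exon bases 46.1% also belong to TOMM40L on the opposite strand, and the sources used here do not give the treatment of reads from shared exons or from either strand. TOMM40L had a log2 fold change of 0.02 ± 0.49 (SE).

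NR1H3 (ENSSSCG00000013241, chromosome 2 from 15270789 to 15334820, minus strand) stands for LXRα, the oxysterol receptor that promotes cholesterol efflux and fatty acid synthesis. Its row is uncertain, because 86.5% of its exon bases in the deposited gene model belong also to MADD on the same strand. With ACP2 on the opposite strand counted as well, 88.5% are shared. It had 4.92, 6.56 and 8.01 CPM in the CON libraries and 16.8, 7.69 and 6.69 CPM in the LPS libraries. LPS replicate 1 was above all other libraries, and LPS replicates 2 and 3 lay within the CON range. NR1H3 had a log2 fold change of 0.66 ± 0.44 (SE, adjusted p = 0.576 by edgeR), and without LPS replicate 1 it was 0.15. For comparison, MADD itself had a log2 fold change of 0.27 ± 0.42 (SE, adjusted p = 0.825 by edgeR). ACP2 had a log2 fold change of -0.77 ± 0.30 (SE, adjusted p = 0.350 by edgeR), with all LPS values below all CON values.

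RXRA (ENSSSCG00000038220, chromosome 1 from 273705503 to 273797622, plus strand) encodes the partner shared by the 5 receptors above. It had 287, 394 and 296 CPM in the CON libraries and 399, 383 and 122 CPM in the LPS libraries. LPS replicates 1 and 2 were within or just above the CON range, and LPS replicate 3 was below every other library. Over all libraries RXRA had a log2 fold change of -0.11 ± 0.44 (SE, adjusted p = 0.942 by edgeR). Without LPS replicate 3 it was 0.28 ± 0.33 (SE) and without CON replicate 2 it was 0.04, so the sign rested on single libraries. LPS replicate 3 was also the library with most counts and with the lowest TMM factor, 0.735, compared with 0.979 to 1.11 elsewhere; the part of this in the RXRA value was not tested.

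NR5A2 (ENSSSCG00000024975, chromosome 10 from 22715735 to 22866904, plus strand) encodes LRH-1, which supports bile acid synthesis and cholesterol handling and dampens acute phase genes. The CON libraries had 59.3, 43.1 and 43.1 CPM. LPS replicates 1 and 3 had 88.7 and 161 CPM, above all CON libraries, while LPS replicate 2 had 33.0 CPM, below all of them. Its mean of 94.4 ± 64.4 CPM in the LPS group, against 48.5 ± 9.4 CPM in the CON group (SD, n = 3 per group), therefore covers libraries on both sides of the CON range. For NR5A2 the log2 fold change was 0.96 ± 0.50 (SE, adjusted p = 0.470 by edgeR). It was 1.37 ± 0.37 (SE, adjusted p = 0.0463 by edgeR) without LPS replicate 2, when the gene was called, and 0.34 ± 0.41 (SE, adjusted p = 0.796 by edgeR) without LPS replicate 3.

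NR0B2 (ENSSSCG00000003565, chromosome 6 from 84225694 to 84228094, plus strand) encodes SHP, which FXR induces and which represses LRH-1 and other receptors. It had 36.9, 23.0 and 30.8 CPM in the CON libraries and 35.3, 45.3 and 52.9 CPM in the LPS libraries. LPS replicates 2 and 3 exceeded every CON library, and LPS replicate 1 lay inside the CON range. SHP had a log2 fold change of 0.56 ± 0.31 (SE, adjusted p = 0.502 by edgeR) and stayed between 0.40 and 0.72 when single libraries were left out. It was the receptor least affected by LPS replicate 2, with 0.55 ± 0.36 (SE) without it.

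NR3C1 (ENSSSCG00000014401, chromosome 2 from 144822937 to 144956095, minus strand) encodes the glucocorticoid receptor, which is present in most cell types and restrains inflammation when cortisol binds it. The CON libraries had 31.5, 22.3 and 25.8 CPM and the LPS libraries 13.1, 22.9 and 21.3 CPM. LPS replicate 1 was the lowest of all libraries, and LPS replicate 2 lay inside the CON range. For NR3C1 the log2 fold change was -0.47 ± 0.33 (SE, adjusted p = 0.597 by edgeR), and -0.26 without LPS replicate 1.

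**Figure D2:**
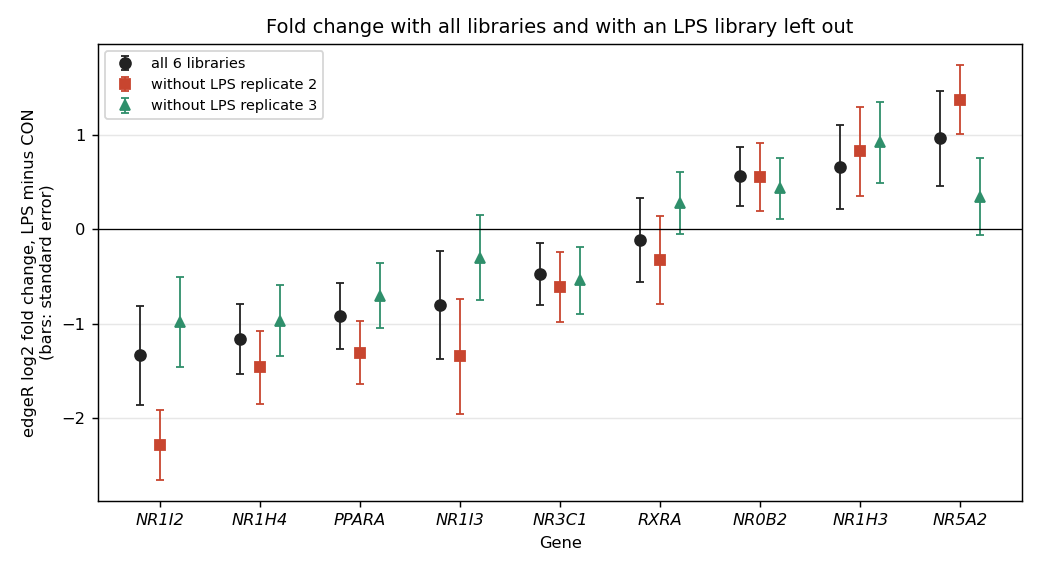
The edgeR log2 fold change of each receptor gene, LPS minus CON, is plotted with its standard error for all 6 libraries and with LPS replicate 2 or 3 left out. Leaving out LPS replicate 2 moves NR1I2 from -1.33 to -2.28 and NR5A2 from 0.96 to 1.37, and leaving out LPS replicate 3 moves RXRA from -0.11 to 0.28.

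Over the 9 receptors the median log2 fold change was -0.47, with 6 values below 0 and 3 above, and over all tested genes the median was 0.01, with 6326 below 0 and 6448 above. NR1I2 and NR1H4 stood at percentiles 3.63 and 5.32 of all tested genes, PPARA at 8.91 and NR5A2 at 92.5. Summed per library, the receptors held 596 to 665 CPM in the CON group, 622 and 636 CPM in LPS replicates 1 and 2, and 422 CPM in LPS replicate 3.

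Levels of different receptors were compared per kilobase of the deposited gene length. In the CON group RXRA was the highest at 48.2 ± 8.8 CPM per kilobase (SD, n = 3), followed by NR0B2 at 26.8 ± 6.2 and PPARA at 19.0 ± 1.7. NR1I2, NR5A2 and NR1H4 came next, at 10.6 ± 2.0, 8.71 ± 1.68 and 8.03 ± 2.52 CPM per kilobase. NR3C1 had 3.92 ± 0.69, NR1I3 0.869 ± 0.223 and NR1H3 0.745 ± 0.178 CPM per kilobase. The values of neighbours in this order overlapped for NR0B2 and PPARA, for NR1I2 and NR5A2, for NR5A2 and NR1H4, and for NR1I3 and NR1H3. The levels of NR1H3 and NR1I3 carry the uncertainty of their shared exons. In the LPS group the means still placed RXRA first, at 44.6 ± 22.9 CPM per kilobase, and NR0B2 second, at 39.5 ± 7.8. The values of this pair overlapped there, and in LPS replicate 3 NR0B2 stood at 46.9 and RXRA at 18.1 CPM per kilobase. NR5A2 came next in the LPS group, at 16.9 ± 11.5, ahead of PPARA at 10.1 ± 4.1 CPM per kilobase. The library values of NR5A2 and PPARA overlapped there, because PPARA stood above NR5A2 in LPS replicate 2 and below it in LPS replicates 1 and 3. The order of all 9 receptors in the LPS group depended on LPS replicate 2, since without that library 4 of the 9 kept their rank.

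**Figure D3:**
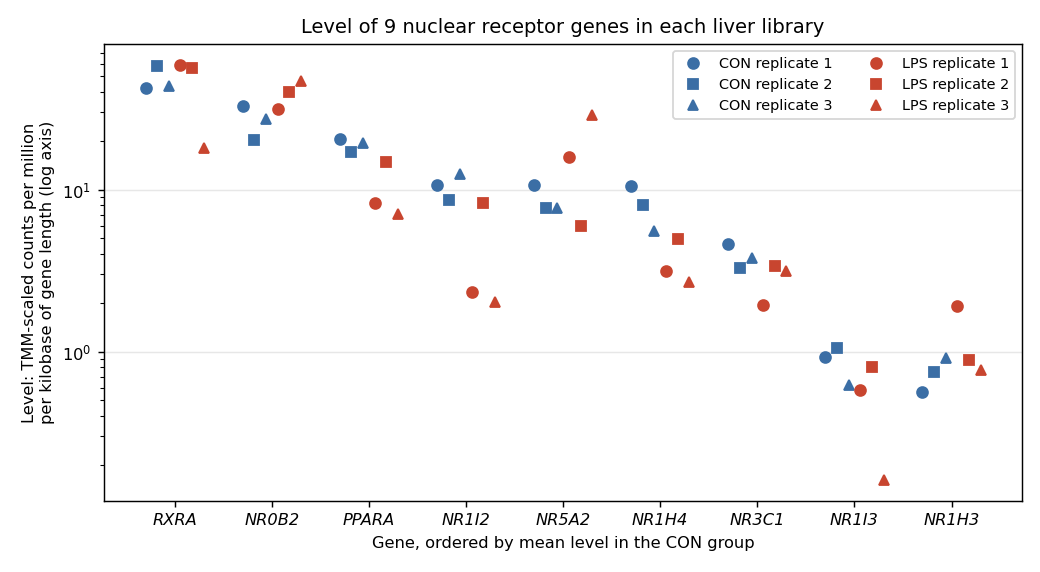
The level of each receptor gene in each library is plotted as TMM-scaled CPM per kilobase of gene length on a log axis, ordered by the CON mean. RXRA leads in 5 of the 6 libraries and stands at 18.1 CPM per kilobase in LPS replicate 3, where NR0B2 and NR5A2 stand above it at 46.9 and 29.0.

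Ratios between receptors within a library do not depend on scaling; those given here were chosen after the values had been seen and are a description. The length-scaled level of NR5A2 relative to NR1H4 was 1.01, 0.969 and 1.40 in the CON libraries and 5.08, 1.20 and 10.7 in LPS replicates 1, 2 and 3. LPS replicate 2 was thus within the CON range and the other LPS libraries were well above it. The ratio of NR0B2 to NR5A2 was 3.07, 2.63 and 3.53 in the CON libraries, lower in LPS replicates 1 and 3 at 1.97 and 1.62, and higher in LPS replicate 2 at 6.77. The summed level of the 5 receptors that pair with RXRA, divided by that of RXRA, was 1.02, 0.609 and 0.890 in the CON libraries and 0.275, 0.524 and 0.704 in the LPS libraries, so the groups overlapped.

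The other nuclear receptors were compared next. Of 33 listed genes 28 were tested, and RXRG, PPARG, PGR, ESRRG and NR0B1 fell below the filter. edgeR, DESeq2 and limma-voom each called 0 of them. At an unadjusted p below 0.05 edgeR gave 5 higher and 3 lower, against 6.18% and 6.33% of all tested genes. The median log2 fold change over the list was 0.35. HNF4A, the receptor that maintains hepatocyte identity, had 291, 206 and 559 CPM in the CON libraries and 730, 277 and 600 CPM in the LPS libraries. These groups overlapped, with a log2 fold change of 0.61 ± 0.47 (SE, adjusted p = 0.637 by edgeR). Its relative HNF4G had 14.2, 8.59 and 5.83 CPM in the CON libraries and 1.96, 5.24 and 2.25 CPM in the LPS libraries (log2 fold change -1.61 ± 0.51 SE, adjusted p = 0.257 by edgeR). HNF4G was called lower without LPS replicate 2 (-2.15, adjusted p = 0.0324 by edgeR), as was THRB, a thyroid hormone receptor. VDR, the vitamin D receptor, had 3, 3 and 11 reads in the CON libraries and 11, 12 and 44 in the LPS libraries, a log2 fold change of 1.99 ± 0.62 (SE, adjusted p = 0.253 by edgeR). NR1D1, the clock receptor REV-ERBα, had 1.70, 2.50 and 1.28 CPM in the CON libraries and 2.18, 6.71 and 6.28 CPM in the LPS libraries (adjusted p = 0.302 by edgeR).

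Among proteins that act with nuclear receptors, 23 of 25 listed genes were tested, with a median log2 fold change of 0.06. edgeR, DESeq2 and limma-voom called 0 of them. At an unadjusted p below 0.05 edgeR gave 2 higher and 1 lower, against 6.18% and 6.33% of all tested genes. NCOA2, a coactivator, had 76.9, 55.3 and 67.3 CPM in the CON libraries and 32.1, 35.3 and 45.5 CPM in the LPS libraries, so the groups did not overlap (log2 fold change -0.82 ± 0.30 SE, adjusted p = 0.314 by edgeR). NRIP1, a corepressor, had 48.9 CPM in LPS replicate 3, 17.2 and 8.83 CPM in LPS replicates 1 and 2 and 10.2 ± 1.8 CPM in the CON group (SD, n = 3). HSP90AA1, a chaperone that holds NR3C1 ready to bind its ligand, had 2058, 818 and 3242 CPM in the LPS libraries and 883 ± 253 CPM in the CON group (SD, n = 3). NRIP1 and HSP90AA1 were called higher without LPS replicate 2, with log2 fold changes of 1.71 and 1.59 (adjusted p of 0.0405 and 0.0399).

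The genes that each receptor is known to control were listed from general knowledge and described by receptor. The lists overlap, and NR0B2 and NR1H3 stand in them as targets too. Without LPS replicate 2, edgeR called 3.45% of all tested genes lower and 3.76% higher, the shares to set beside such calls below. With all 6 libraries edgeR and limma-voom called 0 genes of the 6 target lists, and the genes that DESeq2 called included FGB and PER1, which were higher, and CYP7A1, SLC10A1 and ABCC3, which were lower.

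Of 9 tested FXR targets, 7 had a log2 fold change below 0 and 2 above, with a median of -0.58. In edgeR 2 lower and 1 higher passed an unadjusted p of 0.05, against 6.33% and 6.18% of all tested genes. ABCB11, the bile salt export pump, had 212, 165 and 127 CPM in the CON libraries and 8.72, 115 and 30.1 CPM in the LPS libraries. As for NR1H4, LPS replicate 2 lay nearest to the CON group without overlapping it. The log2 fold change was -1.71 ± 0.75 (SE, adjusted p = 0.391 by edgeR), and -3.08 without LPS replicate 2 (adjusted p = 0.00924 by edgeR), when ABCB11 was called lower, as was ABCC2, and FGB was called higher. KNG1, which encodes kininogen, had 703 ± 188 CPM in the CON group and 252, 358 and 381 CPM in the LPS libraries (log2 fold change -1.09 ± 0.34 SE, adjusted p = 0.253 by edgeR). FGB, the fibrinogen β chain, which is also an acute phase gene, had 9956 ± 2437 CPM in the CON group (SD, n = 3) and 21940, 14560 and 44960 CPM in the LPS libraries. Its log2 fold change was 1.45 ± 0.46 (SE, adjusted p = 0.257 by edgeR, 0.0384 by DESeq2).

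PPARα targets, mostly enzymes of fatty acid oxidation, were tested for 21 of 24 listed genes. Here 17 had a log2 fold change below 0 and 4 above, with a median of -0.67. At an unadjusted p below 0.05 edgeR gave 7 lower and 1 higher, against 6.33% and 6.18% of all tested genes. In 8 genes all LPS values lay below all CON values and in 1 above them, against 9.8% and 6.52% of all tested genes. EHHADH, the peroxisomal bifunctional enzyme, had 198, 144 and 146 CPM in the CON libraries and 37.1, 102 and 55.5 CPM in the LPS libraries (log2 fold change -1.33 ± 0.41 SE, adjusted p = 0.244 by edgeR). HADHA, a subunit of the mitochondrial trifunctional protein, had 223, 224 and 197 CPM in the CON libraries and 68.2, 136 and 107 CPM in the LPS libraries (log2 fold change -1.05 ± 0.34 SE, adjusted p = 0.262 by edgeR). After LPS replicate 2 was left out, edgeR called 6 of 21 lower, among them VNN1, SLC25A20, EHHADH, FGF21 and ETFDH, and 0 higher.

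For LXRα, 12 of 15 listed targets were tested, 9 of them with a log2 fold change below 0, and the list median was -0.35. ABCG8 and ABCG5 together encode the sterol exporter of the bile canaliculus. ABCG8 had 61.6, 45.6 and 45.6 CPM in the CON libraries and 19.0, 29.1 and 19.6 CPM in the LPS libraries, without overlap (log2 fold change -1.18 ± 0.31 SE, adjusted p = 0.212 by edgeR). ABCG5 had 20.5, 8.59 and 8.50 CPM in the CON libraries and 3.71, 7.85 and 5.33 CPM in the LPS libraries (log2 fold change -1.15 ± 0.47 SE, adjusted p = 0.360 by edgeR). FASN, the fatty acid synthase, had 94.4, 301 and 314 CPM in the CON libraries and 147, 96.7 and 59.7 CPM in the LPS libraries, with overlap (log2 fold change -1.23 ± 0.50 SE, adjusted p = 0.360 by edgeR). In the test without LPS replicate 2, ABCG8 was called lower (adjusted p = 0.0347).

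For PXR and CAR, 9 of 24 listed targets were tested, and the other 15, among them the CYP3A, CYP2B and CYP2C enzymes listed, were not paired with a row by symbol, so this list says little about drug metabolism. The 9 had a median log2 fold change of 0.18. ABCC3, a basolateral exporter of conjugates, had 64.3, 56.4 and 71.6 CPM in the CON libraries and 19.2, 27.8 and 27.7 CPM in the LPS libraries. In contrast to NR1I2, its LPS libraries lay close together and far below the CON group (log2 fold change -1.36 ± 0.30 SE, adjusted p = 0.133 by edgeR, 0.0127 by DESeq2). EPHX1, microsomal epoxide hydrolase, had 1026 ± 123 CPM in the CON group (SD, n = 3) and 314 to 630 CPM in the LPS libraries (log2 fold change -1.07 ± 0.35 SE, adjusted p = 0.266 by edgeR). GADD45B, a stress gene that CAR induces, had 87.6, 8.83 and 362 CPM in the LPS libraries and 13.1 ± 2.9 CPM in the CON group (SD, n = 3). Its log2 fold change was 3.55 ± 1.02 (SE, adjusted p = 0.224 by edgeR), and without LPS replicate 2, the library below the CON range, it was called at 4.11 (adjusted p = 0.00278 by edgeR). That test also called 2 of the 9 lower, ABCC3 and ABCC2.

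For LRH-1, 11 of 13 listed targets were tested, and their median log2 fold change was -0.38. In edgeR 4 lower and 1 higher passed an unadjusted p of 0.05, against 6.33% and 6.18% of all tested genes. CYP7A1, the rate-limiting enzyme of bile acid synthesis, had 183, 136 and 162 reads in the CON libraries and 2, 14 and 4 reads in the LPS libraries. On the CPM scale these were 16.4, 21.2 and 16.0 against 0.436, 2.29 and 0.273, so every LPS library was far below every CON library. The log2 fold change was -4.25 ± 0.68 (SE, adjusted p = 0.0668 by edgeR, 5.13e-08 by DESeq2). SLC10A1, the sodium-dependent bile acid importer, had 74.4, 86.9 and 44.5 CPM in the CON libraries and 14.0, 32.1 and 13.9 CPM in the LPS libraries (log2 fold change -1.78 ± 0.43 SE, adjusted p = 0.172 by edgeR, 0.00935 by DESeq2). Without LPS replicate 2 edgeR called CYP7A1, SLC10A1 and ABCG8 lower.

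Among 21 tested targets of the glucocorticoid receptor, 14 had a log2 fold change above 0, with a median of 0.78. In edgeR 7 higher and 0 lower passed an unadjusted p of 0.05, against 6.18% and 6.33% of all tested genes. PER1, a clock gene, had 378 and 579 CPM in LPS replicates 1 and 3, 101 CPM in LPS replicate 2 and 55.0, 124 and 129 CPM in the CON libraries (log2 fold change 1.78 ± 0.59 SE, adjusted p = 0.270 by edgeR, 0.0464 by DESeq2). ZFP36, which destabilizes cytokine mRNA, had 224, 29.8 and 864 CPM in the LPS libraries and 57.3 ± 13.2 CPM in the CON group (SD, n = 3). DUSP1, a phosphatase of MAP kinases, had 94.6, 20.5 and 533 CPM in the LPS libraries and 39.7 ± 6.1 CPM in the CON group (SD, n = 3). For ZFP36 and DUSP1, LPS replicate 2 lay below all CON libraries and LPS replicates 1 and 3 above them. With LPS replicate 2 left out, edgeR called 6 of 21 higher, SGK1, ZFP36, CEBPD, DUSP1, CEBPB and PER1, and 0 lower. Several of these genes are also induced by inflammatory signals without glucocorticoid, so the list does not isolate NR3C1.

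**Figure D4:**
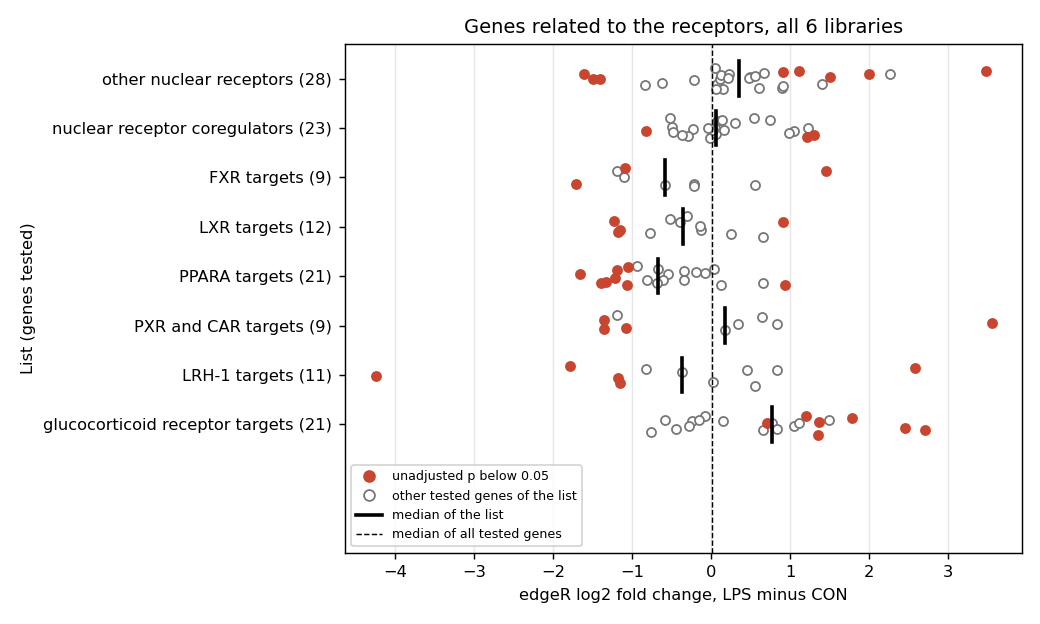
Each point is a tested gene of a list, placed at its edgeR log2 fold change with all 6 libraries, filled where the unadjusted p was below 0.05, with a bar at the median of the list and a dashed line at the median of all tested genes. PPARA targets centre on -0.67 and glucocorticoid receptor targets on 0.78, against 0.01 for all genes.

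The median level of each list was also followed library by library, as log2(CPM + 1) minus the CON mean of each gene. PPARA targets had a median of -1.17 and -0.995 in LPS replicates 1 and 3 and -0.05 in LPS replicate 2, where the CON libraries ran from -0.10 to 0.12. Glucocorticoid receptor targets had 0.44 and 1.36 in LPS replicates 1 and 3 and -0.25 in LPS replicate 2, against -0.20 to 0.23 in the CON libraries. LRH-1 targets were below the CON range in all LPS libraries, at -0.53, -0.42 and -0.25, with CON values between -0.03 and 0.06. In LXR targets LPS replicates 1 and 2 stood at -0.49 and -0.48 and LPS replicate 3 at -0.14, inside the CON range.

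**Figure D5:**
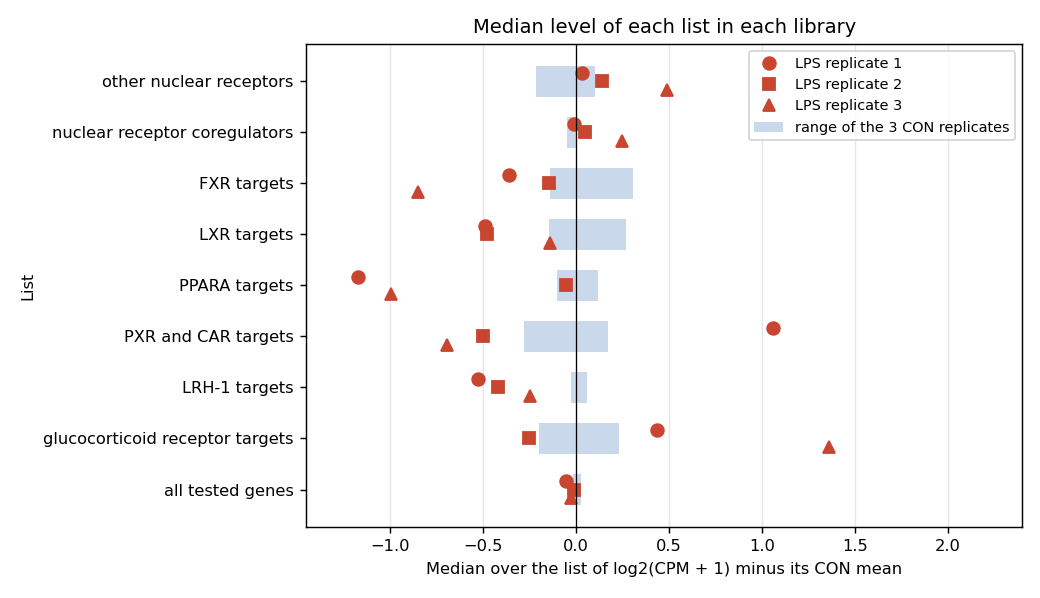
The median over each list of log2(CPM + 1) minus the CON mean is plotted for each LPS library, with a bar for the range of the 3 CON replicates. For PPARA targets LPS replicate 2 lies inside the CON range at -0.05, and LPS replicates 1 and 3 lie at -1.17 and -0.995.

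Of the marker lists of other cell types, the summed level of neutrophil markers separated the groups, and the sums of the remaining lists overlapped between them. The summed level of the 12 neutrophil markers with a row was 24.2 to 37.1 CPM in the CON group and 182, 95.7 and 337 CPM in LPS replicates 1, 2 and 3, so LPS replicate 2 exceeded all CON libraries. Of the 9 tested neutrophil markers 8 had a log2 fold change above 0. Among the Kupffer cell or macrophage markers, cells that also express NR1H3 and NR3C1, 14 of 15 had a log2 fold change below 0, with a median of -0.54. Their summed level, dominated by a few abundant genes, was 2591 to 4143 CPM in the CON group and 2749 to 4240 CPM in the LPS group, and LYZ was at 0 in all libraries. Endothelial markers summed to 380 to 754 CPM in the CON group and 376 to 546 CPM in the LPS group. T or NK cell markers summed to 172 to 228 CPM against 101 to 207 CPM, and B or plasma cell markers to 31.1 to 114 CPM against 20.9 to 49.7 CPM. Cholangiocyte or stellate cell markers summed to 1010 to 1426 CPM against 775 to 1537 CPM, and red blood cell or platelet markers to 79.4 to 104 CPM against 100 to 369 CPM. The part of these cell types in the receptor values was not tested.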

How the data were processed

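Liver input RNA was compared between 3 CON and 3 LPS libraries; the m6A-IP libraries were not analysed here. The table deposited by the authors holds raw counts, whole numbers of reads that were not normalized, for 31908 Ensembl pig genes with coordinates and exon length. The submitters' processing notes name cutadapt 1.9.3 and HISAT2, and a chicken and a human genome build with no stated role. The sources used here give neither the pig build nor the counting program, nor how shared or antisense reads were handled. Group and replicate number in the column headers tied columns to libraries; for CON replicates 1 and 2 the labels hold 2 sequencing entries apiece and the count table a single column apiece. Pairs of libraries differed by at least 48.6 (chi-square per gene), far above sampling noise. The lengths came from the deposited table, and 15029 identifiers were paired with a symbol. All 6 sample columns used here were matched.

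The main test used edgeR 4.0.16 under R 4.3.3: filterByExpr with a minimum count of 10, TMM, robust dispersions, glmQLFit and glmQLFTest, and Benjamini-Hochberg adjustment over all tested genes. Standard errors (SE) were taken as the absolute log2 fold change over the root of the quasi-likelihood F statistic. As alternatives, DESeq2 1.42.0 and limma-voom (limma 3.58.1) were run, edgeR was rerun with RLE factors or total counts, without the filter or with 10 counts required of each library, with a replicate block and with other fold thresholds, and single libraries were left out. The study's methods name an unpaired test for all data and none specific to RNA-seq. The scripts were tested on simulated data.

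The receptors, the 8 lists of related genes and the 8 marker lists were chosen with earlier results of these data known. The lists were written from general knowledge. Named in the text are all receptors, and of each related list the called genes or, where none was called, the 3 tested genes with the smallest unadjusted p, plus HNF4A, ALB and APOA1. Other genes are named where an alternative called them, and MADD, ACP2, GSK3B and TOMM40L for their shared exons. These were chosen after their values were seen. Some genes that the rule or an alternative names are not reported here. Sequences are not shown here.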

Additional observations from a re-analysis of the deposited data

How the results depend on the processing

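There were 3 libraries per group, the biological coefficient of variation was 0.397, and NR1I3 had as few as 15 counts and NR1H3 42 in a library; what size of change these tests could call for the receptors was not tested. The median log2 fold change of all genes was -0.12 when libraries were scaled to total counts, against 0.01 with TMM; the sign of each receptor's log2 fold change was the same under RLE and total-count scaling. Of 126 log2 fold changes of receptors under alternatives, 115 kept their direction and their side of the threshold, 9 gained a call and 2, both of RXRA, changed sign (0.04 without CON replicate 2 and 0.28 without LPS replicate 3).

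Over all genes, with 7 called higher and 0 lower in the main comparison, RLE gave 1 lower, total counts 11 higher and 1 lower, no filter 536 and 349, at least 10 counts in every library 0 higher, DESeq2 275 and 141, and limma-voom 4 and 2. Receptors were called only as follows: NR1I2 without the filter (1 lower, log2 fold change -1.37), and 1 higher and 3 lower without LPS replicate 2. Of the related genes outside the receptors, 0 were called in the main comparison, 12 higher and 12 lower without the filter, and 3 and 3 by DESeq2. DESeq2 without LPS replicate 2, chosen after seeing the data, called 791 and 752 genes, 19 and 21 related genes, and 1 and 3 receptors, with log2 fold changes of -1.42 for NR1H4, -1.27 for PPARA, -2.25 for NR1I2 and 1.41 for NR5A2.

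Leaving out 1 library at a time gave 0 to 512 genes called higher and 0 to 470 lower, with both maxima without LPS replicate 2, 0 to 1 receptors higher and 0 to 3 lower, and 0 to 12 related genes higher and 0 to 14 lower. The log2 fold change then ranged from -1.46 to -0.91 for NR1H4, -1.30 to -0.70 for PPARA, -2.28 to -0.98 for NR1I2, 0.34 to 1.37 for NR5A2 and -0.36 to 0.28 for RXRA. Between 4 and 9 receptors kept their rank by level in the LPS group, and between 7 and 9 in the CON group. The cause of these shifts was not tested. The replicate numbers were not shown to pair the libraries, since the deviations of same-numbered libraries from their group means correlated at -0.24, 0.22 and 0.03. With the replicate block edgeR called 42 genes higher and 9 lower, 1 and 1 related genes (the lower one CYP7A1) and 0 receptors.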
